A study of Rattus norvegicus with 49 samples.

Results

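The comparison asks whether furan at 2 mg/kg changed liver transcripts differently in male and in female rats. Its members are 20 of the 49 arrays of the series, taken by the sex and dose in the sample labels: 5 control males, 5 males at 2 mg/kg, 5 control females and 5 females at 2 mg/kg. All 20 animals were F344 rats, an inbred strain, and dosing began when they were 7 to 8 weeks old. They were gavaged on 5 days of each week for 90 days, the controls with corn oil only and the treated animals with furan in corn oil. Each array held the liver RNA of 1 rat, labelled with Cy5, beside a universal rat reference RNA labelled with Cy3, so a level here is the log2 of liver over reference. The quantity reported is the interaction: the furan effect in males (treated minus control) minus the furan effect in females, on the log2 scale. A value above 0 means that furan moved the transcript more upward, or less downward, in males than in females.

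Furan is a volatile compound formed when food is heated, and it injures the liver after CYP2E1 turns it into a reactive dialdehyde that binds glutathione and proteins. Hepatocytes answer electrophiles through NRF2, a transcription factor that binds antioxidant response elements and induces glutathione S-transferases, aldo-keto reductases and other conjugating enzymes. Metallothioneins, small zinc-binding proteins, are induced by metals through metal response elements and also by glucocorticoids and oxidants. Rat liver is strongly sexually dimorphic: pulsed growth hormone in males and near-continuous growth hormone in females keep separate sets of cytochromes P450, sulfotransferases and steroid enzymes high in each sex.

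Probes were tested if their liver signal was above background in at least 4 animals of any 1 group of sex and dose, lower doses included. Of 17658 such probes, 192 (1.09% of those tested) showed an interaction past an adjusted p of 0.05 (limma, Benjamini-Hochberg) and 1.5-fold. Of these, 83 (0.47%) lay above 0 and 109 (0.617%) below 0, and 136 carried a gene symbol, for 132 genes. In the same fit 895 probes (5.07%) changed in males, 471 up and 424 down, and 248 (1.4%) changed in females, 103 up and 145 down. A response in males that missed the threshold in females was therefore mostly not shown to differ between the sexes: of 822 probes that changed in males and not in females, the interaction was not called for 724. The 73 probes that changed in both sexes all moved in the same direction, and the interaction was called for 1 of them, the probe of Gstp1.

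**Figure D1:**
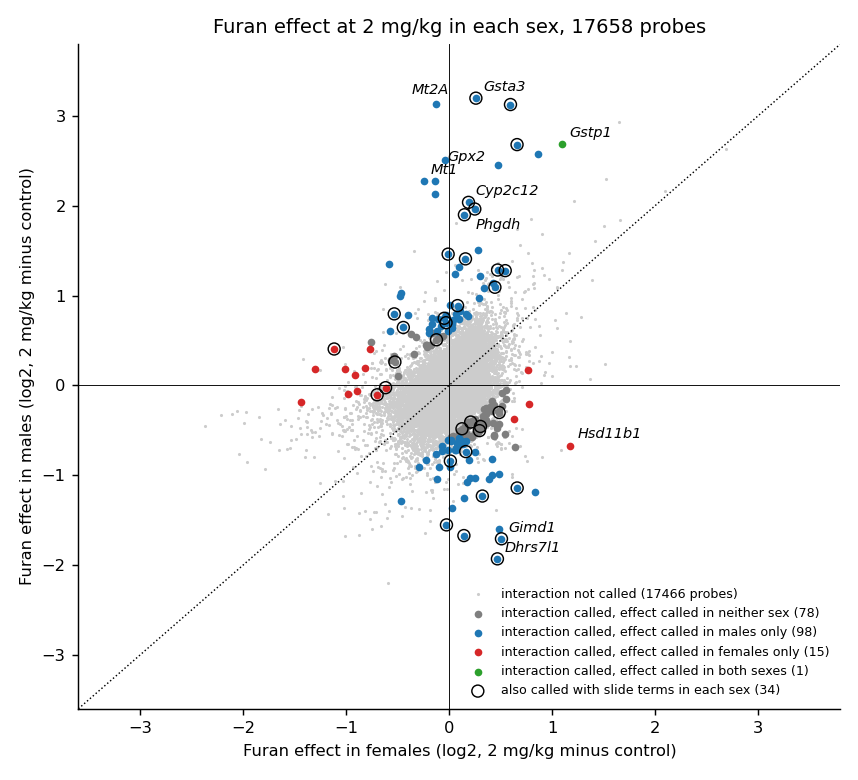
Furan effect at 2 mg/kg in females (x axis) and in males (y axis), in log2 units, 1 point for each of the 17658 probes tested. Coloured points are the 192 probes with the interaction called, by the sex in which furan changed them. These are 98 in males only, 15 in females only, 1 in both and 78 in neither.

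The 192 probes fell into 4 classes. For 98 the furan effect was called in males only, 54 up and 44 down. For 15 it was called in females only, 4 up and 11 down, for 1, Gstp1, in both, and for the remaining 78 in neither sex. A probe near background in the other sex could not show a fall there. Of the 148 called probes above background on at least 4 of 5 arrays in all 4 groups, 74 were called in males only (44 up, 30 down). In females only 9 were called (4 up, 5 down). In all 78 of the last class the fitted effects had opposite signs, and for 76 both were under 1.5-fold. For those 76 the opposite signs follow from the calling rule: effects of the same sign, each under 1.5-fold, cannot differ by 1.5-fold. Where a probe was called in 1 sex, the 95% interval of the other sex stayed within 1.5-fold either way for 55 of the 98 and for 8 of the 15.

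The arrays lay on 8 slides, and the groups were not spread evenly over them. Of the 10 control arrays 8 lay on slides 1 to 4, and of the 10 treated arrays 7 lay on slides 5 to 8. On slides 1 to 4 the share of spots with liver signal above background had a median of 64.38% (60.2 to 71.15), and on slides 5 to 8 a median of 49.17% (37.86 to 69.56). Slide was therefore fitted as a block, at first with 1 set of slide terms for both sexes. With a separate set for each sex, a fit added after the data were seen, 36 interactions were called, 21 above and 15 below 0. Of the 192 probes, 34 were called in both fits, and all 192 kept their sign. Results are given below with the first fit, and those that also passed the second are named as such.

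As to which genes were called in 1 sex only, 27 of those 34 probes were called in the same single sex in both fits: 24 in males and 3 in females. The 24 in males comprised 16 that rose and 8 that fell, and 15 had a gene symbol. Gsta3, Cyp2c12, Phgdh and Rpl23a rose in males with no call in females. Ptgr1 and Pla1a also rose in males with no call in females. Their female intervals in the first fit lay below 0 (-0.91 to -0.15 and -0.79 to -0.10), so part of each interaction was a fitted female fall. Ugt2b7 rose in males with no call in females, but was above background on 1 of 5 treated female arrays. Cd24, Tusc3 and Nme4 rose in males. In the first fit their smaller female effects passed the adjusted p (0.0394, 0.0264 and 0.037) and missed 1.5-fold. In the second fit they passed neither, with values of 0.39, 0.39 and 0.32, so a response confined to males was not shown for these genes. Fahd1 and Crem fell in males with no call in females. Hsd3b5, Gimd1 and Dhrs7l1 also fell in males but were above background on 0, 1 and 0 of 10 female arrays, so a fall in females could not have been seen. Ugcg fell in females with no call in males, as did 1 probe that has no symbol. Rasd2 fell in females and was above background on 0 of 10 male arrays, so a fall in males could not have been seen. Of these 17 genes, Ptgr1, Pla1a, Cd24, Tusc3, Rpl23a, Fahd1, Crem and Ugcg were singled out after their values were seen.

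**Figure D2:**
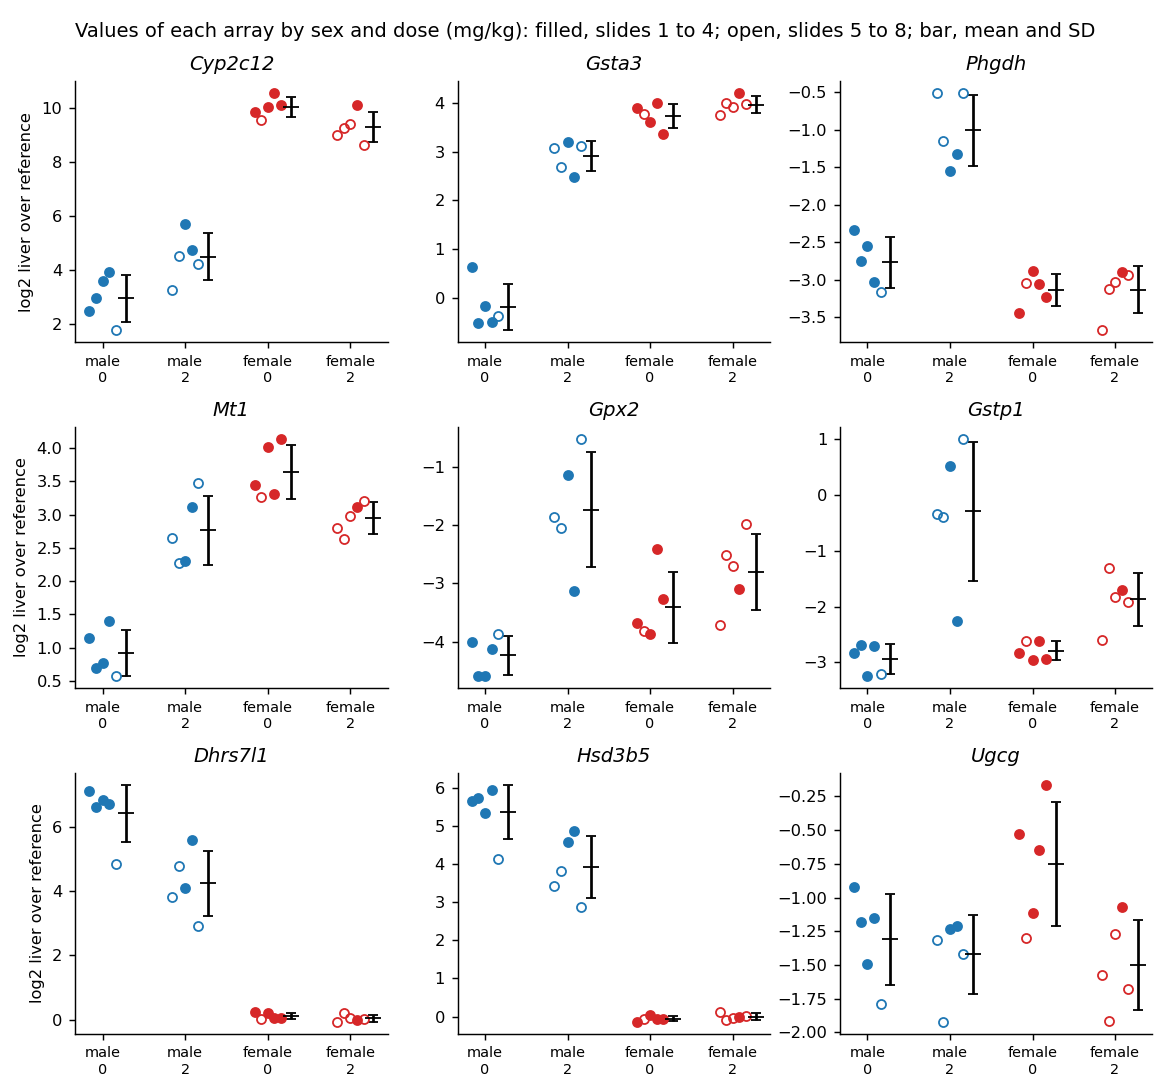
Log2 liver over reference (y axis) on each of the 20 arrays for 9 genes, by sex and dose (x axis), filled on slides 1 to 4 and open on slides 5 to 8, with the mean and SD of each group. For Gsta3 (the dimmer of its 2 probes) treated males lie between 2.48 and 3.21 and control males between -0.52 and 0.63, while the 2 female groups overlap.

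The glutathione conjugation genes showed the strongest single call. Gsta3, an alpha-class glutathione S-transferase, rose in males by 3.20 ± 0.30 (SE) on the log2 scale and showed an interaction of 2.94 ± 0.41, with an adjusted p of 0.000467, the smallest of all probes. Its levels in control males were 0.63, -0.52, -0.15, -0.49 and -0.38, and in males at 2 mg/kg 3.07, 2.69, 3.21, 2.48 and 3.12, so the groups did not overlap. In control females the levels were 3.90, 3.78, 3.62, 3.99 and 3.37, and in treated females 3.75, 4.00, 3.92, 4.21 and 3.97. Treated males thus came close to a level that females held with or without furan, and the female effect was 0.26 (95% interval -0.37 to 0.89). A second, brighter probe of Gsta3 gave an interaction of 0.04 (adjusted p 0.905), with male effect 0.08 and female effect 0.04, so the probes disagree. Some alpha-class transferases are close to identical in sequence, and which transcript the dimmer probe reads was not tested.

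Gstp1, the pi-class transferase known as a marker of altered rat hepatocyte foci, was the 1 gene with a called interaction that was also called in both sexes. Its levels in control males ran from -3.24 to -2.68, and in treated males stood at -0.34, -0.39, 0.51, -2.25 and 1.01. In control females they ran from -2.95 to -2.61, and in treated females stood at -2.60, -1.30, -1.82, -1.70 and -1.92. The male effect was 2.69 ± 0.30, the female effect 1.10 ± 0.31 and the interaction 1.59 ± 0.42 (adjusted p 0.0434). Treated male 86, at -2.25, lay nearer the controls than the other treated males did. Gpx2, a selenium-dependent glutathione peroxidase of epithelia, rose in males by 2.45 ± 0.33 and showed an interaction of 1.98 ± 0.45 (adjusted p 0.0236). Its control males lay between -4.59 and -3.87 and its treated males between -3.13 and -0.52, while control and treated females overlapped (-3.86 to -2.40 against -3.72 to -1.98). Another Gpx2 probe gave 0.92 (adjusted p 0.0562). With slide terms in each sex the interactions were 1.68 for Gstp1 and 1.82 for Gpx2, neither called (adjusted p 0.118 for each). The female effect of Gstp1 was then 1.06, not called (adjusted p 0.0907).

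The promoters of Gpx2 and Gstp1 are shown because both genes are listed NRF2 targets with an interaction above 0. They are RefSeq sequences of build GRCr8, 250 bases before to 50 after the gene's start, read on the gene's strand, at chr6:101229984-101230283 (minus strand) and chr1:210769656-210769955 (minus strand). Capitals mark the antioxidant response element core TGACNNNGC on either strand.
Gpx2: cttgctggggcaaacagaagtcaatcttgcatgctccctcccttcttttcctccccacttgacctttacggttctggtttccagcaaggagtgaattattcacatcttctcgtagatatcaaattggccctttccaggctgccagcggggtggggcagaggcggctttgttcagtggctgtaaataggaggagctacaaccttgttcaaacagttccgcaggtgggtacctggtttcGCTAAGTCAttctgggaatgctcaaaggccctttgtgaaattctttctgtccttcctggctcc
Gstp1: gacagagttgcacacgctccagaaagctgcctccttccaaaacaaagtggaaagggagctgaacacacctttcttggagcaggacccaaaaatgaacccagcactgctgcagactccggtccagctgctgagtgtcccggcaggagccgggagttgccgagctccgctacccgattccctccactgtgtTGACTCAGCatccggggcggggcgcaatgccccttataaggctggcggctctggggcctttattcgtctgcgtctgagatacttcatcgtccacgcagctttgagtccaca
Each holds 1 match, as does the promoter of Ugdh. Those of Gstm4 and Mgst1, whose interactions lay below 0, hold 0, and those of Mt1 and Mt2A, outside the NRF2 list, hold 1 each. No listed NRF2 target without a called interaction was looked at singly, so these matches cannot be set against the direction of the interaction. Among all 33469 RefSeq promoters of this length, 12.1% hold at least 1 match. These are matches of letters only, and nothing was measured on binding.

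Of the 30 listed NRF2 targets 27 were tested, and 7 rose in males and 5 in females, with none falling in either sex. Over all 9850 genes, by the brightest probe, 221 (2.24%) rose and 279 (2.83%) fell in males, and 62 (0.629%) rose and 74 (0.751%) fell in females; the difference between the sexes in such counts was not tested here or for the lists below. The interaction was called above 0 for Gstp1, Gpx2 and Ugdh and below 0 for Gstm4 and Mgst1. Over the list the median male effect was 0.32, the median female effect 0.11 and the median interaction 0.16. Over all 9850 genes the median interaction was -0.01, with 55 called above and 62 below 0. Ugdh, which makes the UDP-glucuronate used in glucuronidation, rose in males by 0.86 ± 0.14, with a female effect of 0.09 ± 0.15 and an interaction of 0.77 (adjusted p 0.0392; 0.129 with slide terms in each sex). Several targets with large male effects had no called interaction. Akr7a3, the aflatoxin aldehyde reductase, rose in both sexes (male effect 2.93, female 1.65, interaction 1.28, adjusted p 0.133). For Akr1b8, an aldo-keto reductase, the interaction was 1.74 (adjusted p 0.0619), for Nqo1 0.62 (adjusted p 0.106) and for Srxn1 0.64 (adjusted p 0.154), so each of these male responses could not be told from the female one by the test. Abcb1b, a drug efflux pump outside the list, rose by 1.68 in males and 0.90 in females, with an interaction of 0.78 (adjusted p 0.143).

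Gstm4, a mu-class transferase, went the other way. It rose in females by 0.76 ± 0.12, from levels of 1.08 to 1.88 in controls to 1.39 to 2.27 in treated females, with a male effect of 0.17 ± 0.11 and an interaction of -0.59 ± 0.16 (adjusted p 0.0452). With slide terms in each sex it was -0.46 (adjusted p 0.176), and another Gstm4 probe gave -0.37. For Mgst1, a microsomal transferase, the interaction was -0.76 ± 0.14 (adjusted p 0.00614) and passed both fits, but neither sex passed 1.5-fold (male -0.46, female 0.30). Over the 22 glutathione S-transferases tested, the interaction was called above 0 for 1 and below 0 for 2, with a median of -0.20. Of 15 aldo-keto reductases tested, 4 rose in males and 1 in females, and the interaction was called for Akr1b7 alone.

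Ugt2b7, a UDP-glucuronosyltransferase, was called in males only in both fits. It was above background on 3 control and 5 treated male arrays, and on 4 control and 1 treated female arrays. Its levels were -1.36, -1.60, -1.39, -1.79 and -0.98 in control males and 0.41, -0.10, 0.47, -1.001 and 1.09 in treated males. In control females it lay between -1.81 and -1.35 and in treated females between -1.62 and -0.98. The male effect was 1.46 ± 0.19, the female effect -0.01 ± 0.19 and the interaction 1.47 ± 0.26 (adjusted p 0.0042). Treated male 86 again sat at the control level. Ptgr1, which reduces leukotriene and prostaglandin enones, showed an interaction of 1.33 ± 0.25 (adjusted p 0.00625), with a male effect of 0.80 and a female effect of -0.53 that did not pass. Of the 31 drug metabolism genes tested 4 rose and 7 fell in males, and the interaction was called above 0 for Ugt2b7 and below 0 for Aox3, an aldehyde oxidase (-1.24, adjusted p 0.0492; 0.179 with slide terms in each sex).

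Mt2A had the largest interaction of any named gene, and Mt1 the third. Mt1 stood at 1.15, 0.70, 0.77, 1.41 and 0.57 in control males and at 2.65, 2.28, 2.30, 3.11 and 3.48 in treated males, with no overlap. Control females lay higher, at 3.45, 3.27, 4.01, 3.31 and 4.14, and treated females at 2.79, 2.64, 2.98, 3.12 and 3.21. The female groups did not overlap either, with treated females lower: on slides 2 and 7, which hold both, treated minus control was -1.02 and -0.63, against 1.96, 0.89 and 2.90 in males on slides 2, 4 and 8. The fitted male effect was 2.28 ± 0.45, the female effect -0.25 ± 0.46, not called, and the interaction 2.52 ± 0.62 (adjusted p 0.0347). For Mt2A control males lay between -1.49 and -0.21 and treated males between 0.86 and 2.62, again apart, while both female groups lay between 0.68 and 2.26. Its interaction was 3.25 ± 0.87 (adjusted p 0.0444), and a second probe gave 2.55 (adjusted p 0.0462). Male and female controls differed more in these genes than treated animals did: the male minus female difference of Mt1 was -2.85 in controls. On single slides it ran from -3.24 to -2.05 in controls and from -0.36 to 0.47 at 2 mg/kg. Both lost the call with slide terms in each sex (Mt1 2.91, adjusted p 0.0832; Mt2A 4.01, adjusted p 0.0705), although the values did not shrink.

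At lower doses the male means of Mt1 also lay above the male controls, with a wide spread between animals. Mean Mt1 in males was 0.92 ± 0.35 (SD, n = 5) in controls, 2.47 ± 1.05 at 0.12 mg/kg, 2.28 ± 1.13 at 0.5 mg/kg and 2.76 ± 0.52 at 2 mg/kg, each of 5 arrays. Females lay at 3.64 ± 0.41 in controls and at 3.40 ± 0.63, 3.22 ± 0.66 and 2.95 ± 0.23 at the same doses. The difference of differences for Mt1 was 1.53 at 0.12 and 2.06 at 0.5 mg/kg, and for Mt2A 2.02 and 2.35. These share the control arrays with the value at 2 mg/kg and were not called. The list of metallothionein and zinc transport genes had 5 members tested, and Mtf1, Slc39a14 and Slc30a1 were not called.

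The promoters of Mt1 and Mt2A, neighbours on chromosome 19, are shown because the genes moved alike. They are at chr19:10832926-10833225 and chr19:10838659-10838958 (GRCr8, RefSeq, minus strand). Capitals mark the metal response element core, TGCACNC or TGCGCNC, on either strand.
Mt1: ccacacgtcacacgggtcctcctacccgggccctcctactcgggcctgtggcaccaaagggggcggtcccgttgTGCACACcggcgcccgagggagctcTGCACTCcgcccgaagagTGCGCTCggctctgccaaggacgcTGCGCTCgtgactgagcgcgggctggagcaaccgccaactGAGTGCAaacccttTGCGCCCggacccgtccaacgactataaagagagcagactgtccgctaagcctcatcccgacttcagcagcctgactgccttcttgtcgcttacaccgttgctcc
Mt2A: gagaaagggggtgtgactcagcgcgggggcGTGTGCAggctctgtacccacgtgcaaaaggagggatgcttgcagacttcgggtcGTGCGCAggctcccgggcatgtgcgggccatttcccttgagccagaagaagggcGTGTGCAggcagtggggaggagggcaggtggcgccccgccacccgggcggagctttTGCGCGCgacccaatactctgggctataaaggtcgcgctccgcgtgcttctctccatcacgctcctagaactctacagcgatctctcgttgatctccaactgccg
The Mt1 window holds 6 matches and the Mt2A window 4. Those of Gstp1, Gstm4 and Mgst1 hold 2, 1 and 1. Of all 33469 promoters 24.2% hold at least 1 match and 0.439% hold 4 or more.

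Other genes rose in males with a smaller or no called effect in females. Phgdh, the first enzyme of serine synthesis from glycolysis, stood at -2.34, -2.75, -2.55, -3.02 and -3.16 in control males and at -0.51, -1.15, -1.55, -1.32 and -0.51 in treated males, with no overlap. In females controls lay between -3.45 and -2.88 and treated animals between -3.67 and -2.89. The interaction was 1.75 ± 0.32 (adjusted p 0.00465), and 1.94 with slide terms in each sex (adjusted p 0.0258). Cd24, a surface glycoprotein of progenitor and biliary cells, rose in males by 1.28 ± 0.13 and had a female effect of 0.47 ± 0.14, under 1.5-fold, with an interaction of 0.81 (adjusted p 0.0238). Its levels ran from -2.58 to -1.76 in control males and from -1.17 to -0.65 in treated males, and from -2.66 to -2.07 and -2.17 to -1.66 in the female groups. Tusc3, a subunit of the oligosaccharyltransferase complex, and Nme4, a mitochondrial nucleoside diphosphate kinase, had the same form: male effects of 1.28 and 1.09, and female effects of 0.54 and 0.44. For Cd24, Tusc3 and Nme4 the female interval excluded 0 in the first fit, where the male response was larger rather than confined to males. With slide terms in each sex their female effects were 0.39, 0.39 and 0.32, not called (adjusted p 0.115, 0.159 and 0.189). Female intervals held 0 for Phgdh (-0.33 to 0.63) and Rpl23a, a ribosomal protein gene (-0.27 to 0.21). Ctps2, a CTP synthase, rose in males by 0.75 with an interaction of 0.91 (adjusted p 0.0392), and Dio3, which inactivates thyroid hormone, rose by 0.68 with 0.85 (adjusted p 0.0214). With slide terms in each sex neither was called (adjusted p 0.168 and 0.0994). Dio3 was the only one of 9 thyroid hormone genes tested with a call.

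Genes that fell in males with no call in females included Crem, a cAMP-responsive transcription factor. Its levels were 2.45, 2.63, 2.67, 2.76 and 2.33 in control males and 1.52, 1.78, 1.72, 1.97 and 1.41 in treated males, apart from each other. Its female groups overlapped, at 1.31 to 1.89 and 1.03 to 1.97. The interaction was -0.90 ± 0.18 (adjusted p 0.00854). Fahd1, a mitochondrial oxaloacetate decarboxylase, fell in males from 3.02 to 3.52 in controls to 1.82 to 2.64, with a female interval of -0.20 to 0.23 and an interaction of -0.85 ± 0.14 (adjusted p 0.00198). Sgk1, a kinase induced by glucocorticoids, stood at 1.44, 1.31, 1.12, 2.24 and 0.62 in control males and at -0.37, -0.24, 0.67, -0.42 and -0.30 in treated males. The 10 females lay between -0.97 and 0.60. Its interaction was -1.40 ± 0.33 (adjusted p 0.0264; 0.138 with slide terms in each sex). As with Mt1, the control males stood apart: mean Sgk1 in males was 1.35 ± 0.59 (SD, n = 5) in controls and -0.34 ± 0.40, 0.25 ± 0.45 and -0.13 ± 0.45 at 0.12, 0.5 and 2 mg/kg.

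Fgl1, a hepatocyte-secreted fibrinogen-like protein, fell in males by 1.28 on the log2 scale, with a female effect of -0.47 (adjusted p 0.0677) and an interaction of -0.82 (adjusted p 0.0392). Ltc4s, the leukotriene C4 synthase, had a male effect of -0.9996 and an interaction of -1.42 (adjusted p 0.0188), with 2 of 5 treated female arrays above background. Sesn2, a stress-induced p53 target, was called with an interaction of -0.78 (adjusted p 0.0335) and was the only one of 16 p53 targets tested with a call, with neither sex past 1.5-fold. Fgl1, Ltc4s and Sesn2 were not called with slide terms in each sex (adjusted p 0.099, 0.169 and 0.207).

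The females-only class was small. Ugcg, which makes glucosylceramide, was above background on all 20 arrays. It lay at -0.53, -1.30, -1.11, -0.65 and -0.16 in control females and at -1.57, -1.92, -1.27, -1.07 and -1.68 in treated females, so the groups overlapped between -1.30 and -1.07. Males overlapped widely, at -1.79 to -0.92 and -1.92 to -1.21. The female effect was -0.62 ± 0.11, the male effect -0.03 ± 0.10 and the interaction 0.59 ± 0.14 (adjusted p 0.0313). Rasd2, a small GTPase, stood at 2.48, 1.57, 2.27, 2.13 and 3.29 in control females and at 0.74, 0.78, 0.38, 1.99 and 1.09 in treated females. It was above background on 0 of 10 male arrays, so its male effect (0.40, fitted) is not a measurement, and control females were at least 4.12-fold above control males. The fitted interaction was 1.52 (adjusted p 0.0313).

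Slc39a5, a zinc transporter of the ZIP family, fell in females from 2.02, 2.21, 2.49, 2.44 and 2.34 to 0.81, 1.09, 1.02, 1.31 and 1.42, with no overlap. Its males were at -0.57 to 0.04 in controls and -0.37 to 0.29 when treated, and the interaction was 1.48 ± 0.30 (adjusted p 0.00854; 0.097 with slide terms in each sex). Paqr4, a membrane receptor of the progestin and adipoQ family, fell in females from -0.67 to -0.17 in controls to -1.31 to -0.66, with an interaction of 0.83 (adjusted p 0.00854). Glod5, of the glyoxalase domain family, fell by 1.43 in females, with an interaction of 1.25 (adjusted p 0.0347), and was above background on 3 control and 2 treated male arrays. Lurap1, an adaptor in NF-kB activation, fell by 0.81 in females with a fitted interaction of 1.004 (adjusted p 0.0313), and was above background on 0 male arrays. Cpa1, a pancreatic carboxypeptidase also listed as female-biased in liver, had a fitted female effect of -0.77 and a fitted interaction of 1.17 (adjusted p 0.0392). It was above background on 0 control and 2 treated male arrays. The interactions of Slc39a5, Paqr4, Glod5, Lurap1 and Cpa1 were not called with slide terms in each sex. Lurap1 and Cpa1 also lost the female call there (-0.49, adjusted p 0.0866, and -0.28, adjusted p 0.307). On slides 2 and 7 treated minus control females gave 0.07 and -0.26 for Cpa1, so its fall depended on the slide terms.

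Genes that differ between the sexes carried part of the calls. Sex bias was taken from males and females at 0.12 mg/kg, arrays outside the comparison, although they share its slide terms: 357 probes (2.02%) were higher in females and 405 (2.29%) higher in males. Of the 83 interactions above 0, 28 were female-biased and 0 male-biased, and of the 109 below 0, 30 were male-biased and 0 female-biased. Part of these probes passed the filter only through the sex in which they are high. Among probes above background on at least 4 arrays in all 4 groups, 22 of 62 above 0 (35.5%) were female-biased and 13 of 86 below 0 (15.1%) male-biased, against 2.21% and 2.02% of the 12180 such probes. The female-biased probes had a median interaction of 0.33, with a median male effect of 0.08 and female effect of -0.27. The male-biased probes had a median interaction of -0.27, with a median male effect of -0.33 and female effect of 0.05. Over the 269 and 246 of them measured in all 4 groups the medians were 0.23 and -0.27. Both medians have the sign that narrows the difference between the sexes, and the median over all probes was -0.0024. Single arrays varied around their group in the median of these sets, with an SD of 0.217 for all female-biased and 0.257 for all male-biased probes. The medians were not tested against this spread.

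These medians moved with the slide terms. With terms in each sex the median interaction was 0.13 for female-biased and -0.15 for male-biased probes. For the probes biased by 4-fold or more it went from 0.88 to 0.34 (48 female-biased) and from -0.79 to -0.40 (66 male-biased). For the 30 and 23 of these measured in all 4 groups the shift was smaller, from 0.81 to 0.47 and from -0.76 to -0.60. The level of these genes also moved with the slide in animals at 0.03 and 0.5 mg/kg. Among such males the median level of the 4-fold male-biased probes was 5.18 to 5.86 on slides 1 to 4 and 4.23 to 4.90 on slides 5 to 8. Among such females that of the 4-fold female-biased probes was 3.20 to 4.39 and 2.51 to 3.28. The part of the slide in the interactions beyond these values was not tested. Treated and control males of the same slide differed in the 4-fold male-biased set by medians of -0.55, -0.97 and -0.75 on slides 2, 4 and 8, so the median lay below 0 on each of the 3 slides that hold both groups. For the 4-fold female-biased set in females the same medians were -0.07 and -0.11 on slides 2 and 7. In males that female-biased set gave 0.12, -0.04 and 0.07 on slides 2, 4 and 8, on both sides of 0. In females the 4-fold male-biased set gave -0.07 on slide 2 and on slide 7.

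**Figure D3:**
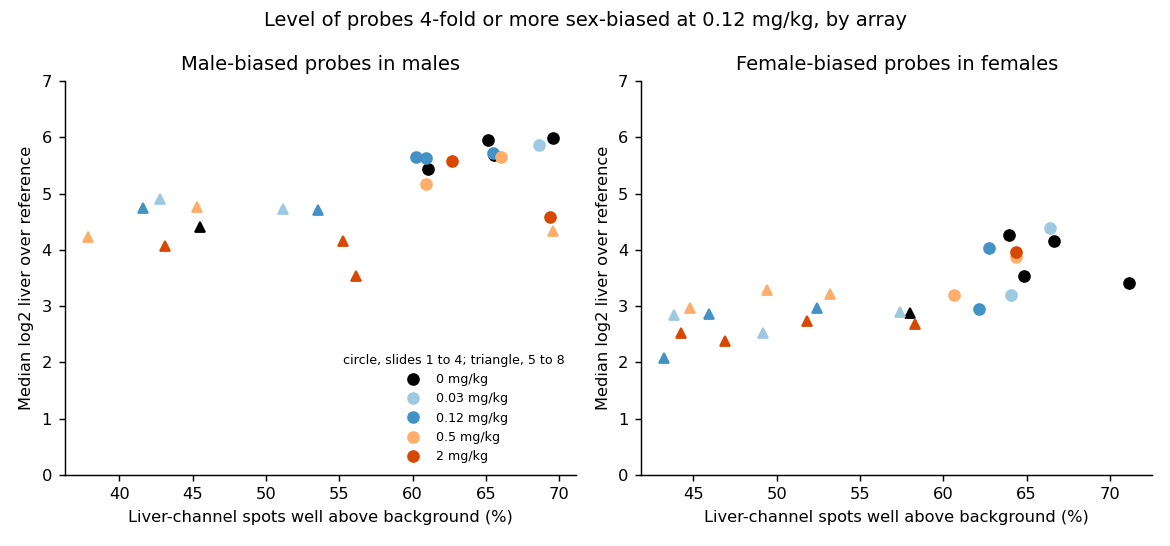
Median log2 liver over reference (y axis) of the 66 probes male-biased by 4-fold or more in males (left) and of the 48 female-biased by 4-fold or more in females (right), 1 point per array, against the percent of liver-channel spots well above background (x axis), with dose by colour and slide by symbol. In animals at 0.03 and 0.5 mg/kg the male-biased set in males runs from 5.18 to 5.86 on slides 1 to 4 and from 4.23 to 4.90 on slides 5 to 8.

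Cyp2c12, the female-specific steroid sulfate hydroxylase of rat liver, was called in males only in both fits, and rose there. Its levels in control males were 2.50, 2.98, 3.59, 3.93 and 1.77, and in treated males 3.27, 4.54, 5.71, 4.74 and 4.24. In females it lay between 9.58 and 10.57 in controls and between 8.64 and 10.14 when treated, far above every male. The male effect was 2.04 ± 0.30, the female effect 0.19 ± 0.32 and the interaction 1.85 ± 0.42 (adjusted p 0.0236), or 2.38 with slide terms in each sex (adjusted p 2.77e-05). On slides 2, 4 and 8 treated minus control males gave 2.24, 1.78 and 2.46. The male groups overlapped when slides were not considered.

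Other female-biased genes with an interaction above 0 were Akr1b7 (1.49, adjusted p 0.0168), Prom1, a progenitor surface protein (1.93, adjusted p 0.0347), Prlr, the prolactin receptor (1.48, adjusted p 0.0239) and A1bg, a plasma glycoprotein (1.25, adjusted p 0.0483). A1bg was above background on 1 control and 2 treated male arrays, so its value is fitted against background. Akr1b7, an aldo-keto reductase, was above background on 0 control male arrays and 3 treated male arrays, at least 1.7-fold higher in treated males. Of the 17 listed female-biased genes tested, 5 were called above 0 (Cyp2c12, Akr1b7, A1bg, Prlr and Cpa1) and 0 below, with a median of 0.37. Of these Akr1b7, A1bg and Cpa1 passed the filter only through females. With slide terms in each sex 1 of them, Cyp2c12, was called and the median was 0.20. Prom1 was not called there either (1.55, adjusted p 0.144), and a second Prom1 probe gave 1.76 (adjusted p 0.0538).

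Of the 405 male-biased probes 74 were called down and 14 up in treated males, against 424 down and 471 up of all 17658. Hsd3b5, a male-specific ketosteroid reductase, stood at 5.67, 5.74, 5.35, 5.95 and 4.14 in control males and at 3.42, 3.83, 4.59, 4.86 and 2.88 in treated males. All 10 female arrays were not well above background and lay between -0.14 and 0.13. The first fit gave females an effect of 0.66, which these flat values do not show, and an interaction of -1.80 ± 0.34 (adjusted p 0.00625). With slide terms in each sex the female effect was 0.08, the male effect -0.93 and the interaction -1.01 (adjusted p 0.00815). Dhrs7l1, a short-chain dehydrogenase, behaved alike: 7.11, 6.61, 6.83, 6.70 and 4.85 in control males, 3.83, 4.80, 4.09, 5.60 and 2.91 in treated males, and -0.07 to 0.23 in females. Its interaction was -2.40 in the first fit and -1.74 in the second (adjusted p 0.0375). In both genes control male 6 lay below the other control males. Hsd3b5 was at least 40.8-fold higher in control males than in control females and at least 11.9-fold higher at 2 mg/kg, and Dhrs7l1 at least 60.3-fold and at least 11.4-fold. A second Hsd3b5 probe gave -1.08 (adjusted p 0.189).

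Gimd1, of the GIMAP GTPase family, fell in males from 2.00, 2.43, 2.43, 3.09 and 1.55 to 0.32, 0.37, 1.26, 0.34 and -0.11, with no overlap. It was above background on 5 control and 1 treated male arrays and on 0 control and 1 treated female arrays, and was at least 4.09-fold higher in control males than in control females. The fitted interaction, which sets the males against values at background, was -2.22 (adjusted p 0.00485) and -1.62 with slide terms in each sex (adjusted p 0.0299). Notch1 (-2.02, adjusted p 0.0399), Nox4, an NADPH oxidase (-1.47, adjusted p 0.0419), and Gfra1, the GDNF receptor (-1.32, adjusted p 0.0468), were not above background in control females and were not called with slide terms in each sex. A second Notch1 probe gave 0.26, so its probes disagree. Hsd11b1, which regenerates active glucocorticoid, had an interaction of -1.85 (adjusted p 0.0188). Its control females lay at 0.67, 0.73, 0.69, -0.39 and -0.05 and its treated females at 1.97, 1.26, 1.24, 1.33 and 1.35, with no overlap, and the female effect was 1.18 ± 0.30. In males Hsd11b1 lay between 3.58 and 4.48 in controls and between 2.90 and 3.94 when treated. With slide terms in each sex the female effect was 0.70 (adjusted p 0.18) and the interaction was not called (adjusted p 0.163). Of the 16 listed male-biased genes tested, 4 fell and 1 rose in males, none was called in the interaction and the median was -0.50. Cyp3a2, a male-predominant cytochrome P450, fell by 1.28 in males, with a fitted interaction of -1.31 (adjusted p 0.103). It was above background on 2 control and 0 treated female arrays, and at 2 mg/kg was at least 295-fold higher in males.

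**Figure D4:**
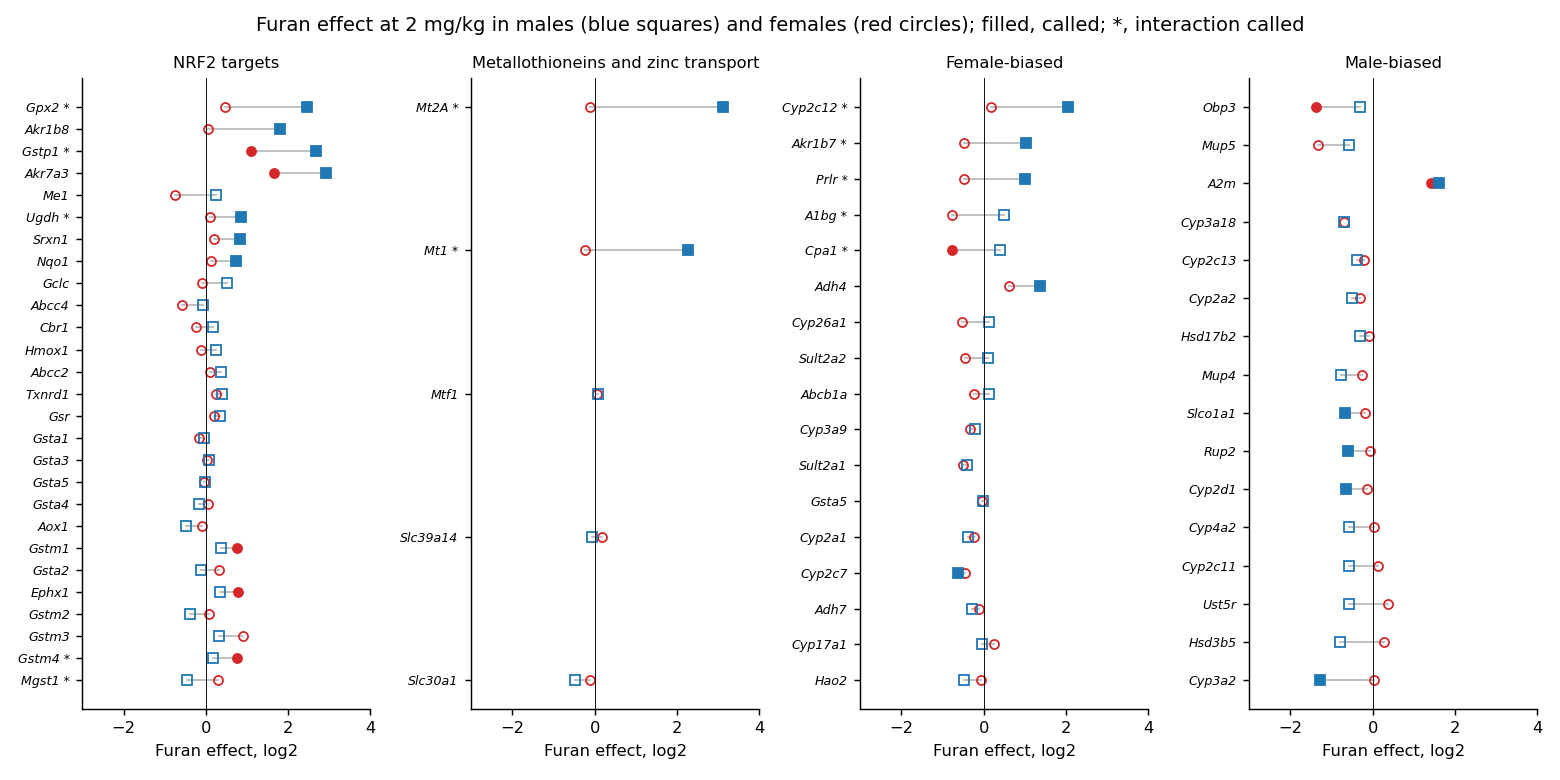
Furan effect at 2 mg/kg (x axis, log2) in males (squares) and females (circles) for the tested members of 4 gene lists (y axis), each by its brightest probe and ordered by interaction, the horizontal gap between its symbols. Filled symbols passed the test, and an asterisk marks a called interaction: 5 of 27 NRF2 targets, Mt1 and Mt2A, 5 of 17 female-biased and 0 of 16 male-biased genes.

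Of the lists with no call in the interaction, cell cycle (23 tested), acute phase (20), lipid metabolism (28), clock (12) and heme synthesis (10) had medians of 0.05, -0.23, -0.21, -0.17 and -0.14. In males 6 lipid genes fell and 1 rose, and 5 clock genes fell and 1 rose. In females 3 lipid genes and 0 clock genes fell, and none rose. Of 27 tested genes that the study names, for sex differences or for its PCR checks, 9 were called above and 3 below 0. Those were chosen on these samples and are no independent evidence. Among them Fabp7, a fatty acid binding protein, fell in both sexes (males -1.23, females -1.03), with an interaction of -0.20 ± 0.31 (adjusted p 0.754). Cyp3a62, a cytochrome P450, rose in both (1.77 and 1.51), with 0.27 ± 0.39 (adjusted p 0.746).

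The liver label held: all 7 hepatocyte markers were above background on all 20 arrays. Their interactions ran from -1.03 to -0.08, with a median of -0.46 and none called. Their median level, not adjusted for slide, was 7.13 and 6.22 in control and treated males and 6.95 and 5.70 in control and treated females. With slide fitted, their median furan effect was -0.50 in males and -0.0078 in females, so the unadjusted levels do not give the furan effect. Of 8 bile duct markers tested 4 rose in males and 1 in females, and of 12 stellate cell markers 3 rose in males and 0 in females. Of 6 red cell markers 3 fell in males and 0 in females. The median level of the bile duct markers, also not adjusted for slide, went from -0.62 to 0.03 in males and from -0.60 to -0.04 in females. With slide fitted, their median furan effect was 0.355 in males and 0.19 in females. No marker of these or of macrophages, red cells, neutrophils, endothelium, B cells, T cells or muscle had a called interaction, and of the pancreas list Cpa1 did. In whole liver, more cells of a type and more RNA per cell cannot be told apart, and the part of cell makeup in the interactions was not tested.

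Single animals weighed on the counts. Along the line from control to treated, set from probes called without the array in question, treated male 86 lay 30.2% of the way and the other treated males from 89.4 to 146%. Control male 6 lay at 56.3%, treated female 90 at 24%, and control females 11 and 4 at 45.6 and 62.4%. Without male 86 the interaction was called for 566 probes, without male 87 for 40 and without male 83 for 107. Of 27 genes named for the largest values, Akr1b7, Gsta3, Phgdh, Dhrs7l1, Gimd1, Hsd3b5, Slc39a5 and Paqr4 were called whichever array was left out, while Gstp1 lost the call in 16 of 20 cases and Mt2A in 14. Within slides alone, males minus females at 2 mg/kg did not overlap the same difference in controls for 9.33% of all probes and for 151 of the 192 (78.6%), which the same arrays had chosen.

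At 0.5 and 0.12 mg/kg no interaction was called by limma, with 0 past the threshold and 1449 and 1297 probes at an unadjusted p under 0.05, beside 3333 at 2 mg/kg.

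**Figure D5:**
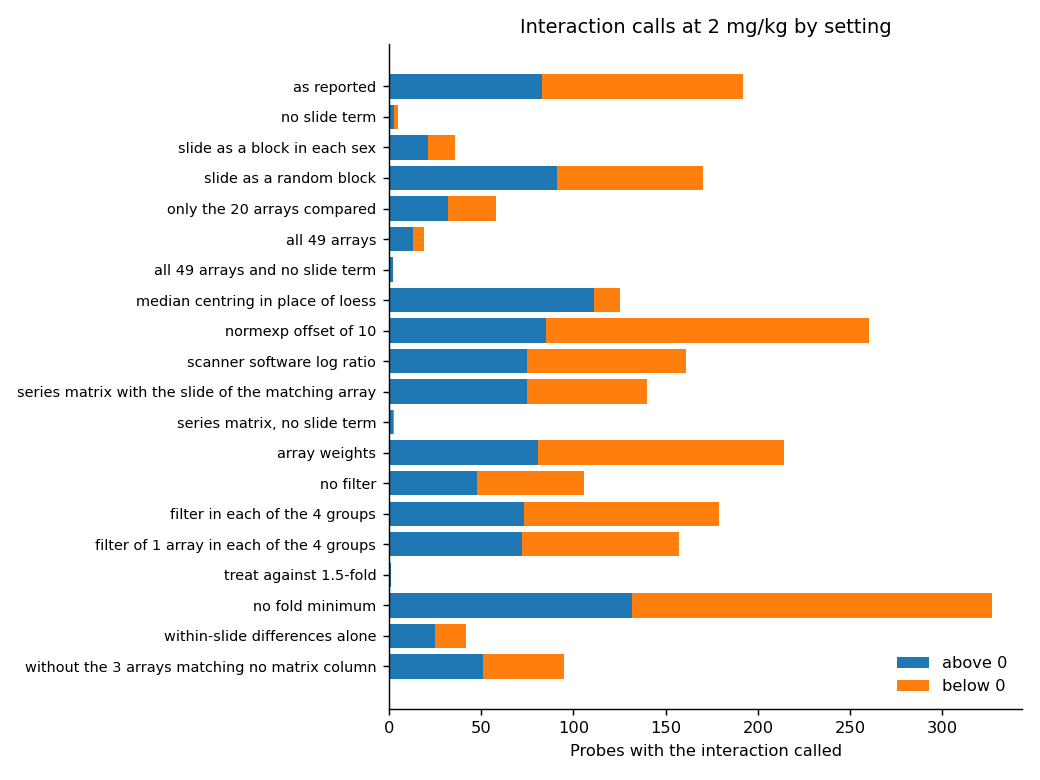
Number of probes with the interaction called at 2 mg/kg (x axis) under each way of processing (y axis), split into those above and below 0. The count runs from 1 with a test against 1.5-fold itself to 327 with no fold minimum, beside 192 as reported and 36 with slide terms in each sex.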

How the data were processed

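Liver RNA of single F344 rats was hybridised against a universal rat reference on 2-colour Agilent arrays, 1 array per animal. The deposited scanner files, made by the authors with Agilent Feature Extraction 10.7.3.1 on an array design of build rn4, give each spot's mean and background intensity in both channels. They also give the scanner's log10 ratio and, in a table of the whole series, the authors' normalized log2 ratios of unstated direction and centring, both used as alternatives. Here normexp (offset 50) and loess were applied in limma 3.58.1 (R 4.3.3) to spots of transcripts, spots of a probe were averaged, and the direction, liver (Cy5) over reference (Cy3), was taken from the labels. Of 30367 probes 18004 carried 1 gene symbol. Probes were kept for testing by the scanner software's flag for a liver channel well above background. It had to hold in 4 or more animals of any 1 of the 10 groups of sex and dose, lower doses included.

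The fit held 48 arrays in 10 groups of sex and dose with slide as a fixed block (31 residual degrees of freedom). The array of male 26 at 0.03 mg/kg, with 5.06% of liver spots above background, was left out. Calls needed an adjusted p of at most 0.05 and 1.5-fold. On the 20 arrays 43.1 to 71.15% of liver spots and 67.7 to 78.12% of reference spots were above background, and 5 arrays a group limit the precision. Of the 49 arrays 46 matched a column of the series table (r of at least 0.9), all of their own group, but only 7 of them under their own animal number, and animals are numbered here as in the sample label of each scanner file. Male 83 at 2 mg/kg matched none. Members and lists were chosen with earlier results of these data known. Named genes are the 10 largest interactions above and below 0, the 6 largest effects in 1 sex only in each direction, called list members, and genes the study names for sex differences or PCR checks. The values of 1 named gene are not reported here, though it is included in the counts. The probe with the largest interaction stands for a named gene and the brightest probe for a list member. The interaction fit and its calls were tested on simulated data with slide effects shared by both sexes. That simulation could not show how the calls fare where a slide acts differently in each sex.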

Additional observations from a re-analysis of the deposited data

Results flagged for a closer look

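The interaction of sex and furan at 2 mg/kg was called for 27 genes named for the largest values, and 7 of them (Gsta3, Cyp2c12, Phgdh, Rasd2, Dhrs7l1, Gimd1 and Hsd3b5) kept the call with slide terms in each sex. Values above 0 were 3.25 for Mt2A, 2.94 for Gsta3, 2.52 for Mt1, 1.98 for Gpx2, 1.93 for Prom1, 1.85 for Cyp2c12, 1.75 for Phgdh, 1.59 for Gstp1, 1.52 for Rasd2, 1.49 for Akr1b7, 1.48 for Slc39a5, 1.25 for Glod5, 1.17 for Cpa1, 1.004 for Lurap1 and 0.83 for Paqr4. Values below 0 were -2.40 for Dhrs7l1, -2.22 for Gimd1, -2.02 for Notch1, -1.85 for Hsd11b1, -1.80 for Hsd3b5, -1.47 for Nox4, -1.42 for Ltc4s, -1.40 for Sgk1, -1.32 for Gfra1, -0.82 for Fgl1 and -0.59 for Gstm4. These are fitted log2 differences of the male and female furan effects. They are not exact sizes for genes near background in 1 sex: Rasd2 and Lurap1 were above background on 0 of 10 male arrays, Cpa1 on 2 and Akr1b7 on 3, and Dhrs7l1, Notch1, Hsd3b5 and Nox4 on 0 of 10 female arrays and Gimd1 and Gfra1 on 1. The values stand with their adjusted p-values in the report.

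In 9 of the 108 sets of 5 animals examined (27 genes in 4 groups), 1 animal stood apart from the other 4, where chance gives about 5%. Control male 6 did so in 6 genes: it was high for Akr1b7 (0.038) and low for Dhrs7l1 (4.85), Notch1 (1.02), Hsd11b1 (3.58), Nox4 (0.39) and Gfra1 (0.75). Among treated males animal 86 was high for Nox4 (1.09) and animal 84 for Sgk1 (0.67). Treated female 82 was high for Hsd11b1 (1.97). Control male 6 was also the 1 control male on slides 5 to 8, and it lay 56.3% of the way from control to treated males over the called probes. Without it 224 interactions were called.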

How the results depend on the processing

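No interaction of the 27 named genes changed sign under any setting, and 1, Gsta3, was called under all of them. The count of 192 interactions fell to 5 with no slide term, 36 with slide terms in each sex, 58 on the 20 arrays alone, 19 on all 49 arrays, 2 on all 49 without slide terms, 125 with median centring (111 above and 14 below 0, with the median of all probes at 0.15), 3 in the series table without slide terms, 106 with no filter, 1 when tested against 1.5-fold itself, 42 from differences within slides and 95 without the 3 arrays that match no series column. It was 327 with no fold minimum, 260 with an offset of 10 (85 above and 175 below 0), 170 with slide as a random block, 161 with the scanner's ratio, 140 in the series table with slide terms and 214 with array weights. Of the 192, 34 were shared with the fit with slide terms in each sex and 150 with the random block. Leaving out 1 array gave 40 to 566 and 1 slide 35 to 253. For the 113 probes called in 1 sex, the same settings gave 5 (no slide term), 30 (terms in each sex), 44 (20 arrays), 14 (49 arrays), 2 (49 without slide), 171 (offset 10), 3 (series table without slide), 64 (no filter), 1 (against 1.5-fold), 298 (no fold minimum) and 64 (without the 3 arrays), and 27 to 368 without 1 array and 29 to 167 without 1 slide. The 895 male calls became 392 (49 without slide), 1464 (scanner's ratio), 507 (series table without slide), 31 (against 1.5-fold) and 4110 (no fold minimum), and 555 to 1332 and 691 to 1284 without 1 array or slide. The 248 female calls became 118 (terms in each sex), 35 (20 arrays), 116 (49 arrays), 118 (49 without slide), 134 (median centring), 419 (offset 10), 509 (scanner's ratio), 465 (array weights), 0 (limma's treat against 1.5-fold) and 1058 (no fold minimum), and 100 to 348 and 89 to 463. The 762 sex differences at 0.12 mg/kg became 460 (no slide term), 342 (49 without slide), 400 (series table without slide), 199 (against 1.5-fold) and 2079 (no fold minimum), and 747 to 767 and 554 to 930. The 18 list members called became 0 (no slide term; 49 without slide; series table without slide; against 1.5-fold), 4 (terms in each sex), 5 (20 arrays), 2 (49 arrays), 9 (median centring; no filter), 10 (scanner's ratio), 5 (within slides) and 7 (without the 3 arrays), and 3 to 36 and 2 to 17. The interaction at 0.5 mg/kg gave 0 to 1 and at 0.12 mg/kg 0 calls without 1 array. The median interaction of female-biased probes ran from 0.27 to 0.36 and of male-biased probes from -0.32 to -0.22 without 1 array. The slide terms in each sex, the filter of 1 array in each group, the series table without slide and the fit without the 3 arrays were chosen after seeing the data. The cause of these shifts was not tested. No paired analysis was possible because treated males and females share only animal number 83, control males and females only 2 and 4, and treated animals share no number with controls.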
